A study of Harpegnathos saltator with 12 samples.

Results

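Insects detect most volatile odorants with odorant receptors (Ors). Each olfactory neuron usually expresses a single tuning Or, the subunit that binds the odorant, and the tuning Or forms an ion channel together with the shared co-receptor Orco. In ants the Or family has expanded by repeated duplication of neighboring genes, so that many Ors stand side by side in long arrays. Which odorant most of the receptors described here respond to is not given in the files, and each is identified only by its curated name, HsOr followed by a number.

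The receptors described here are the members of the 6 longest uninterrupted runs of tuning Or genes in the antennal transcriptome of the ant Harpegnathos saltator. In the row order of the gene count tables, consecutive rows that carry a tuning Or name were joined into runs, and the runs of 15 or more rows were kept. They hold 216 receptors. HsOr60, HsOr61 and HsOr161 were left out, which leaves 213 of the 376 tuning Ors and of the 14407 genes in the tables. The paper names HsOr61 among receptors whose expression was considerably retained in homozygous orco mutants. The totals below therefore do not cover the whole runs. Row order is the only evidence of adjacency used, since the count tables give no coordinates, strand or scaffold. Each array is named by its first and its last row. HsOr44 to HsOr43 holds 58 members, HsOr170 to HsOr166 holds 29, HsOr60 to HsOr77.2 holds 17, HsOr325 to HsOr349 holds 42, HsOr273 to HsOr302 holds 30 and HsOr117 to HsOr121 holds 37.

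Polyadenylated RNA from antennae of adult ants was sequenced in 12 libraries. By genotype, 2 were wild type, 3 were heterozygous orco mutants and 7 were homozygous orco mutants. The wild types and heterozygotes together are called the controls (n = 5), so that 3 of the 5 controls carry 1 mutant copy. Sequencing batch 1 held wild-type replicate 2 and replicate 1 of each mutant genotype, and batch 2 held the rest. The age of the adults and the number of ants per library are not in the labels, and nothing says whether libraries of a genotype came from separate ants, so the p-values measure the spread between libraries, which may be technical in part.

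Gene-assigned counts ranged from 4.11 M to 23.2 M per library. Expression is given in CPM, counts relative to a library size scaled by TMM, edgeR's trimmed mean method. A floor of 3 counts in a library corresponded to 0.143 to 0.653 CPM, and this floor, like every interval below, covers counting error only. Wild-type replicate 1 stood apart from the other controls. It had the highest CPM in all 6 arrays, and the lowest of any library for Mhc, a muscle myosin, at 281 CPM against 603 to 4819 CPM in the other controls. It was also the lowest library for grh and sv, markers of epithelium and support cells. For LOC105190591, LOC105182650 and LOC105188530, also support cell markers, it was the highest library, at 195.5, 6949 and 272.1 CPM. Its onecut level was 28.0 CPM against 109.6 to 217.1 CPM in the other controls. Every cell type marker examined was detected in every library. Summed over 4 neuronal genes, nSyb, fne, Syt1 and onecut, the level was 1335 to 2214 CPM in controls and 556 to 1263 CPM in homozygotes. Of the 4, nSyb, Syt1 and onecut were called lower in homozygotes by edgeR, while fne was not (log2 fold change -0.42, adjusted p = 0.059) and was highest of all libraries in homozygote replicate 1, at 568.9 CPM. Over the 13 markers examined besides HsOrco, 4 were called lower and 4 higher. Besides nSyb, Syt1 and onecut, the support cell marker LOC105190591 was called lower, with a log2 fold change of -0.83. The support cell markers LOC105182650 and LOC105188530 were not called. Those called higher were Mhc (2.53), which reached 3111 to 8559 CPM in homozygotes, sv (1.54), the ammonia transporter Rh50 (1.47) and the glial marker repo (0.35), each as a log2 fold change. The part of these differences in cell makeup in the results below was not tested.

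HsOrco, the targeted gene, stood at 2278 and 2769 CPM in the wild types and at 2553.5, 1669.9 and 1729.8 CPM in the heterozygotes. In the homozygotes it ranged from 13.6 to 157 CPM with a median of 24.4 CPM. Every homozygote was below every control. The highest homozygote value, 157 CPM, belonged to replicate 5, and the next highest was 45.0 CPM.

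In homozygotes nearly all expression of the array receptors was lost. The 213 members together reached 2551 and 1643 CPM in the wild types and 1550, 1294 and 1201 CPM in the heterozygotes. The homozygotes had 34.4 CPM in the lowest library, 39.9 CPM in the median and 65.5 CPM in the highest. All 7 homozygotes therefore lay far below all 5 controls. As a share of gene-assigned counts, the arrays held 0.171% ± 0.0518 (SD, n = 5) in controls and 0.00421% ± 0.000866 (SD, n = 7) in homozygotes, or 2.5% of the control mean. In bulk tissue, fewer receptor neurons and less receptor RNA per neuron cannot be told apart.

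**Figure D1:**
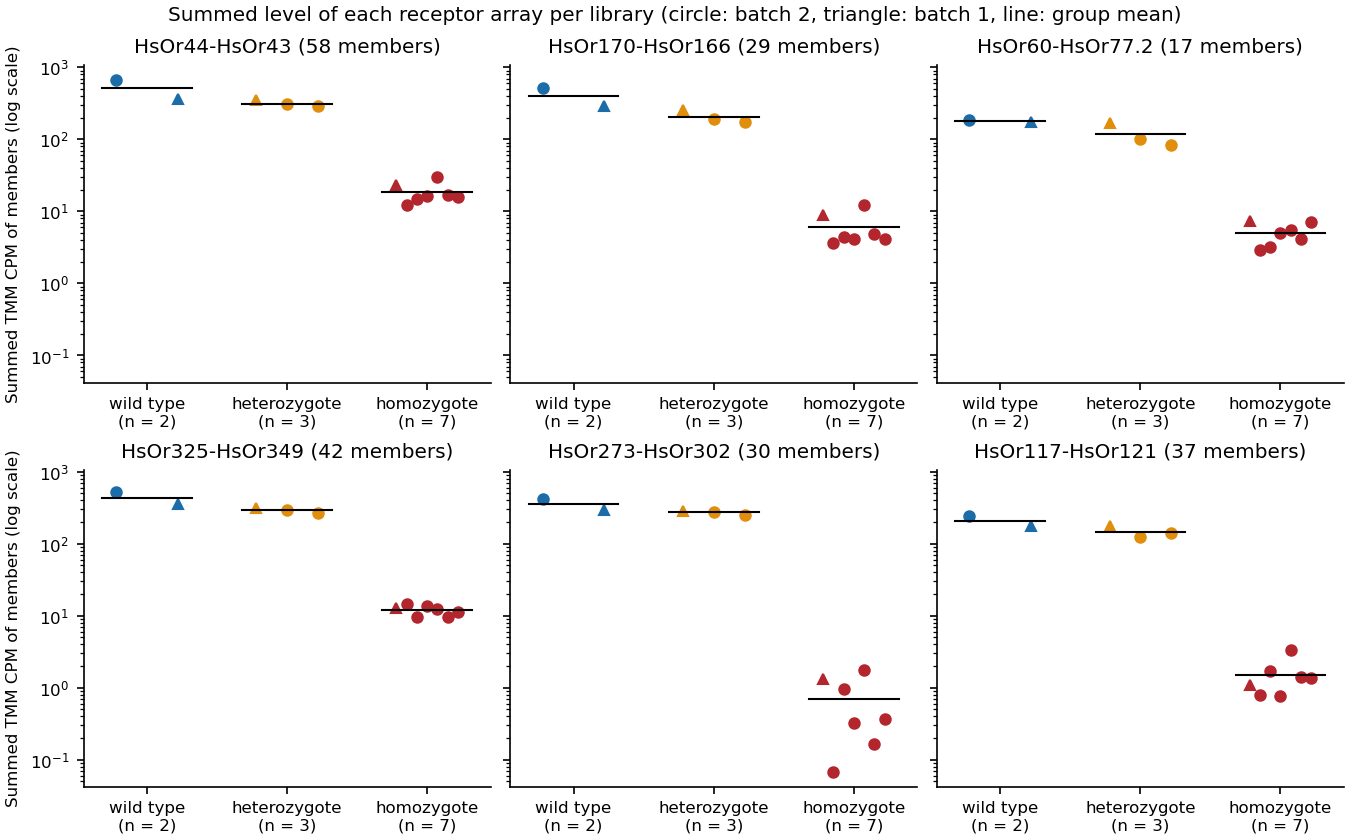
Summed TMM CPM of the members of each array (log axis) in each library, by genotype. Every homozygote lies below every control in all 6 arrays, and in the HsOr273 to HsOr302 array the homozygotes run from 0.0668 to 1.76 CPM against 249 to 418 CPM in controls.

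Of the 213 members, 203 passed the minimum mean count of 10 and were tested. For homozygote against controls, 202 of the 203 were called lower by edgeR's quasi-likelihood test at an adjusted p under 0.05, and HsOr21 was not called. Among all genes tested, 25.0% were called lower in this comparison. The median log2 fold change of the tested members was -6.00, or -4.67 when members at or under 3 counts in every homozygote library were set to their bound against that floor, beside -0.04 over all genes tested. A member could pass the minimum through its control level alone, so the untested members are given below as well. For homozygote against heterozygote 200 members were called lower, where 16.2% of all genes were, and for homozygote against wild type 201 were called lower, where 25.8% of all genes were. HsOr3, HsOr21 and HsOr322 missed the threshold against heterozygotes, and HsOr4 and HsOr21 missed it against wild types. Without wild-type replicate 1, 187 members were called lower against the controls.

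Read without a test, 199 of the 203 tested members had every homozygote library below every control library, a pattern shown by 9.81% of all genes tested. Over all 213 members the count was 207. The 6 members with overlapping groups were HsOr59, HsOr2, HsOr3, HsOr21, HsOr64 and HsOr322, of which HsOr2 and HsOr64 were too low to test. In wild types 206 and 207 members reached at least 1 CPM, in heterozygotes 204 to 211, and in homozygotes 5 to 12. The 163 tuning Ors outside the described set stood close to the arrays, with 136 of 143 tested called lower and a median log2 fold change of -5.37.

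The arrays differed in how much was left. The homozygote mean share was 4.3% of the control mean in HsOr44 to HsOr43, 3.3% in HsOr60 to HsOr77.2, 3.2% in HsOr325 to HsOr349, 1.9% in HsOr170 to HsOr166, 0.81% in HsOr117 to HsOr121 and 0.205% in HsOr273 to HsOr302. The last of these was the lowest array in 7 of 7 homozygote libraries, and HsOr117 to HsOr121 was the second lowest in 7 of 7. The other 4 arrays overlapped between libraries, although HsOr44 to HsOr43 was the highest in 5 of 7. These values are a description of the 7 libraries and were not tested. Homozygote replicate 5, the library with the most HsOrco, was the highest of the 7 in 4 arrays. Without it the share left in HsOr117 to HsOr121 fell from 0.81% to 0.66% and in HsOr273 to HsOr302 from 0.205% to 0.155%, and the order of the 6 arrays by mean share was changed only in that HsOr325 to HsOr349, at 3.3%, passed HsOr60 to HsOr77.2, at 3.2%.

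**Figure D2:**
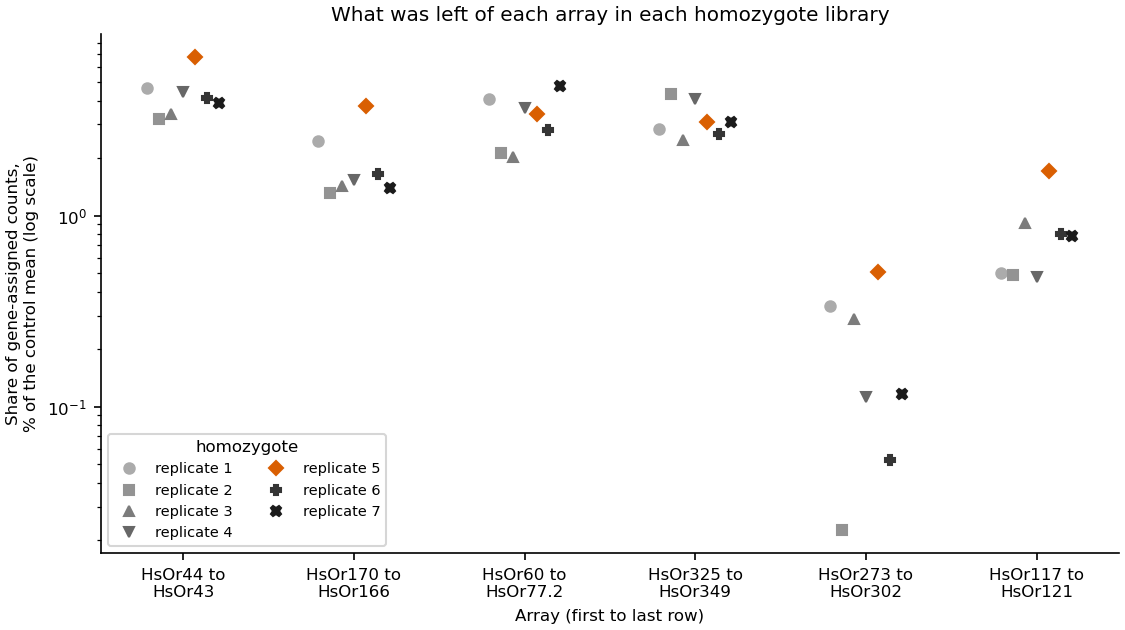
Share of gene-assigned counts in each array and each homozygote library as a percentage of the mean of the 5 controls (log axis), with replicate 5 in orange. The HsOr273 to HsOr302 array is lowest in every library, from 0.0227% to 0.506%, and HsOr44 to HsOr43 runs from 3.2% to 6.7%.

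The same difference showed in single members. All 30 members of HsOr273 to HsOr302 kept less than 1% of their control mean, as did 27 of 37 in HsOr117 to HsOr121. In the other arrays the counts were 14 of 58 in HsOr44 to HsOr43, 11 of 29 in HsOr170 to HsOr166, 6 of 42 in HsOr325 to HsOr349 and 3 of 17 in HsOr60 to HsOr77.2. At the other end, 20 members kept 10% or more. Of these, 13 lay in HsOr44 to HsOr43, 4 in HsOr325 to HsOr349 and 3 in HsOr60 to HsOr77.2. They include HsOr2, HsOr31, HsOr64 and HsOr311, which were too low to test, with control means of 0.467 to 1.49 CPM. The percentages of these members are uncertain. Altogether 23 members had no count in any of the 7 homozygote libraries, 10 of them in HsOr273 to HsOr302 and 8 in HsOr117 to HsOr121.

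**Figure D3:**
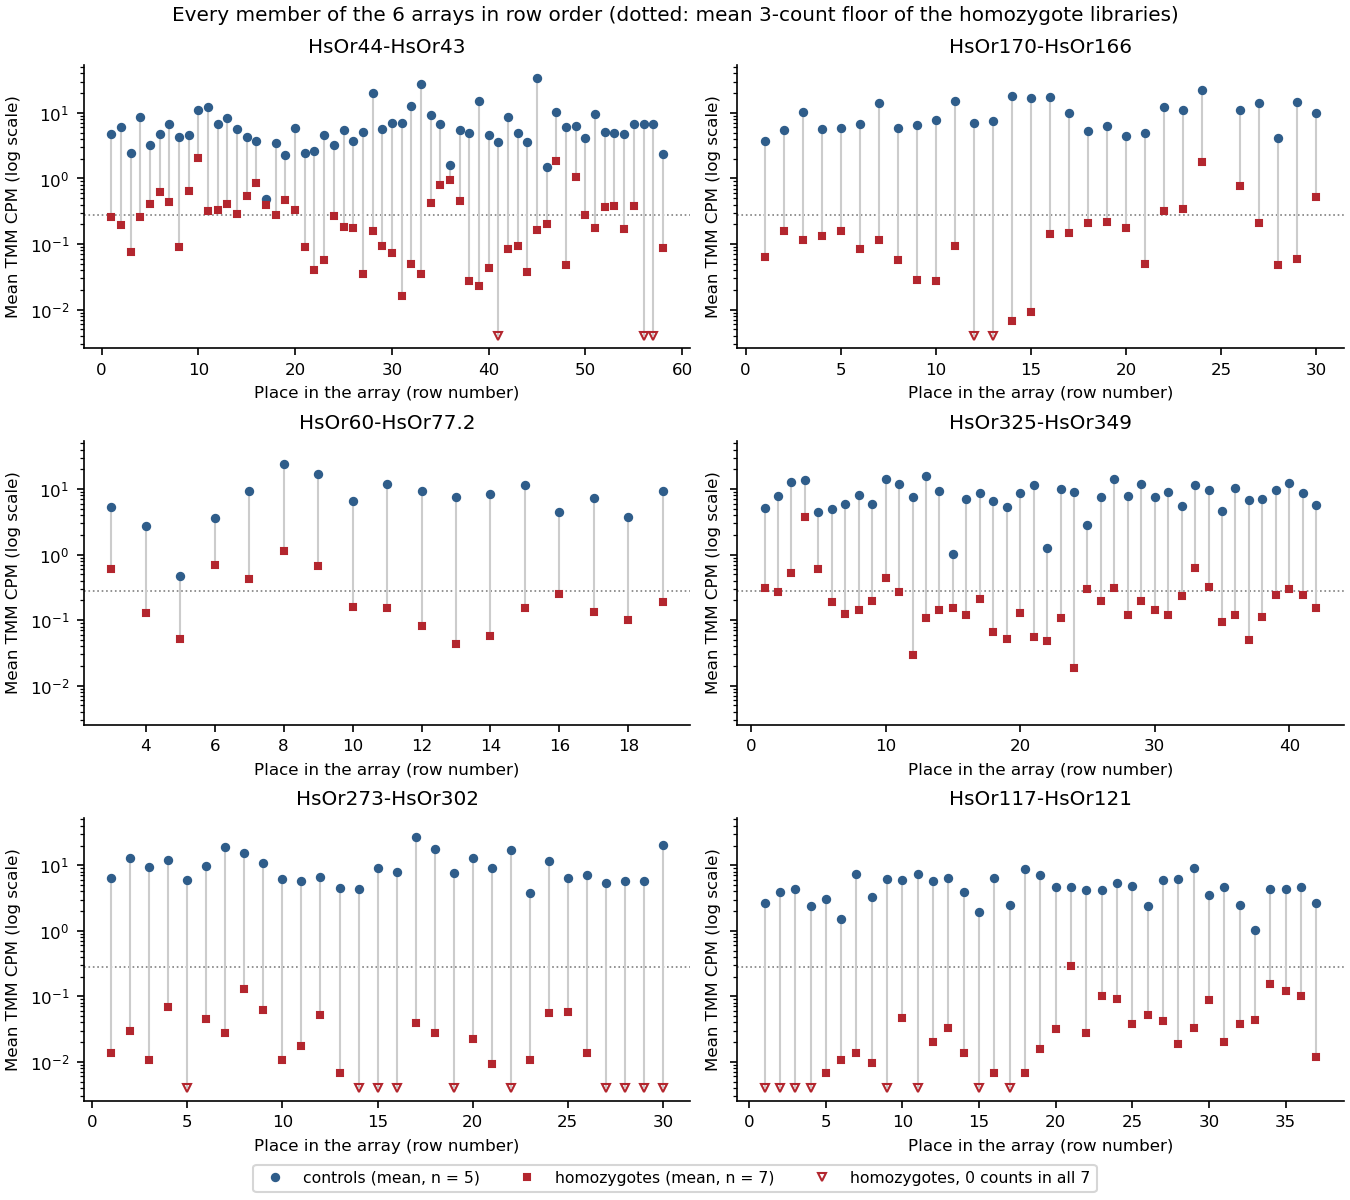
Mean TMM CPM (log axis) of every member along each array, in controls and homozygotes, with open triangles for the 23 members at 0 counts in all homozygotes. The dotted line marks the mean 3-count floor of the homozygote libraries, 0.276 CPM, and in the HsOr273 to HsOr302 array every homozygote mean lies under it.

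HsOr44 to HsOr43, the largest array, gave 675 and 361 CPM in the wild types, 349, 306.5 and 287 CPM in the heterozygotes, and a lowest, median and highest of 12.3, 16.5 and 30.4 CPM in the homozygotes. The genotype groups of homozygotes and controls did not overlap, and 55 of the 56 tested members were called lower. HsOr30, which received the most reads of the array in controls, had 70.8 and 24.6 CPM in wild types and 19.2, 31.2 and 24.1 CPM in heterozygotes, and 0 to 0.571 CPM with a median of 0.0828 CPM in homozygotes. The fitted difference was -7.77 ± 0.48 (SE) on the log2 scale, at an adjusted p of 4.5e-07, and -8.95 without homozygote replicate 5. HsOr18 gave 53.5 and 27.0 CPM in wild types and 18.7, 17.1 and 23.8 CPM in heterozygotes, and had 4 counts in the 7 homozygotes together, which makes it at least 101-fold lower against the floor of 3 counts per library.

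The members left at the highest level in this array were not those with the most reads in controls. HsOr53 had 20.2 and 10.4 CPM in wild types, 8.26, 7.45 and 8.11 CPM in heterozygotes, and 0.745 to 3.66 CPM with a median of 1.80 CPM in homozygotes. It was present in every homozygote and below every control, and its log2 fold change was -2.48 ± 0.32 (SE) at an adjusted p of 1.1e-04. HsOr53, HsOr32 and HsOr34 made up 26.4% of what the array retained in homozygotes and 7.0% of its control level. The first row, HsOr44, fell from 4.84 ± 3.46 CPM (SD) in the 5 controls to 0.255 ± 0.224 CPM in the 7 homozygotes, and the last row, HsOr43, from 2.38 ± 1.21 to 0.087 ± 0.113 CPM. The latter was at least 8.6-fold lower, since no homozygote library had more than 3 counts of it.

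HsOr21 was the single tested member not called. It had 0.071 CPM in wild-type replicate 1 and 1.74 CPM in replicate 2, then 3.43, 0.877 and 1.83 CPM in heterozygotes, and 0.414 to 1.22 CPM with a median of 1.09 CPM in homozygotes. The homozygotes lay inside the range of the controls. Its mean was lower in homozygotes (0.942 against 1.59 CPM) while its batch-adjusted log2 fold change was positive, 0.30 ± 0.56 (SE), with an adjusted p of 0.69. The direction and the call depended on the libraries and the model. HsOr21 had 1 count in wild-type replicate 1, and without that library the log2 fold change was -0.54. It was also negative, -0.28, without the batch term. In batch 2 alone, where that library is the only wild type, HsOr21 was called higher in homozygotes (1.61, edgeR adjusted p = 0.038).

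Members that kept 10% or more in this array stood beside one another in the row order. Of the 13, 11 had a direct neighbor that also kept 10% or more. These were the pairs HsOr48 and HsOr49, HsOr52 and HsOr53, HsOr20 and HsOr21, and HsOr31 and HsOr32, and the row of HsOr58, HsOr59 and HsOr2, while HsOr4 and HsOr34 had no such neighbor. HsOr59 had 8.40 and 2.83 CPM in wild types, 1.56, 2.89 and 2.70 CPM in heterozygotes, and 0.467 to 1.66 CPM in homozygotes, so the highest homozygote was above the lowest heterozygote. HsOr2 was low everywhere, at 0.263 to 0.652 CPM in controls and 0.148 to 0.911 CPM in homozygotes, and was not tested. HsOr31 was also untested, at 0.635 to 2.65 CPM in controls and 0 to 0.334 CPM in homozygotes. How many such neighbors scattered members would have was not computed. The count tables hold uniquely mapped reads, and how far neighboring copies share sequence was not examined here.

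When the members of an array were divided in row order into first, middle and last segments of near-equal size, the first 19 members of HsOr44 to HsOr43 kept 8.6% of their summed control level, the middle 20 kept 2.7% and the last 19 kept 4.0%. The first segment was the highest and the middle the lowest in 7 of 7 homozygote libraries. The segments were not tested.

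HsOr170 to HsOr166 gave 511 and 290.4 CPM in the wild types, 257, 191 and 175 CPM in the heterozygotes, and 3.6, 4.45 and 12.1 CPM as the lowest, median and highest of the homozygotes. All 29 members passed the count minimum and all were called lower. HsOr155, which received the most reads in both controls and homozygotes, had 46.6 and 21.7 CPM in wild types, 13.2, 14.8 and 13.8 CPM in heterozygotes, and 0.667 to 2.61 CPM with a median of 1.86 CPM in homozygotes. Its log2 fold change was -3.71 ± 0.27 (SE), adjusted p = 1.2e-06. It stands in the row just before HsOr161, which is outside the described set, and HsOr162 stands just after. HsOr162 had 8.33 and 11.7 CPM in wild types, 20.9, 8.33 and 6.36 CPM in heterozygotes, and 0.365 to 1.74 CPM in homozygotes.

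HsOr139 showed the opposite extreme in the same array. It had 42.0 and 15.4 CPM in wild types, 12.9, 10.3 and 10.6 CPM in heterozygotes, and a single count in the 7 homozygotes together, which is at least 66.1-fold lower. HsOr137 and HsOr138, the rows before it, had none. The first member, HsOr170, averaged 3.69 ± 1.16 CPM (SD) in controls and 0.063 ± 0.079 CPM in homozygotes, at least 13.4-fold lower. The last member, HsOr166, went from 9.85 ± 4.75 to 0.521 ± 0.742 CPM, with 45 of its 63 homozygote counts in replicate 5. The last segment, HsOr150 to HsOr166, kept 3.9% of its control level, against 1.3% in the first and 0.80% in the middle segment, and it was the highest in 7 of 7 homozygotes. Without replicate 5, which held 60 of the 105 homozygote counts of the first segment, the first and middle segments kept 0.85% and 0.53%.

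HsOr60 to HsOr77.2 starts with the 2 receptors left out, so that its first member is HsOr62. Its members gave 187.5 and 173 CPM in the wild types, 170.1, 102 and 83.2 CPM in the heterozygotes, and 2.94, 4.95 and 7.4 CPM as the lowest, median and highest of the homozygotes. All 16 tested members were called lower. HsOr67 had the most reads in controls and in homozygotes, with 28.1 and 36.5 CPM in wild types, 26.8, 19.0 and 12.2 CPM in heterozygotes and 0.401 to 2.18 CPM with a median of 0.900 CPM in homozygotes. Its log2 fold change was -4.29 ± 0.30 (SE), adjusted p = 1.0e-06. HsOr68, its neighbor, averaged 16.9 ± 6.49 CPM (SD) in controls and 0.678 ± 0.288 CPM in homozygotes. HsOr62 went from 5.37 ± 1.60 to 0.609 ± 0.316 CPM and HsOr77.2, the last member, from 9.46 ± 2.72 to 0.192 ± 0.0939 CPM. The 6 members nearest the left-out rows, HsOr62 to HsOr67, kept 6.6% of their control level, and the following segments kept 2.1% and 2.0%. The first segment was the highest in 7 of 7 homozygotes.

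HsOr325 to HsOr349 gave 519.7 and 353.5 CPM in the wild types, 314, 297 and 266 CPM in the heterozygotes, and 9.57, 12.4 and 14.7 CPM as the lowest, median and highest of the homozygotes. All 40 tested members were called lower. HsOr322 was the member left at the highest level in any of the 6 arrays. It had 35.4 and 10.9 CPM in wild types, 6.39, 8.94 and 6.75 CPM in heterozygotes, and 2.32 to 6.53 CPM with a median of 3.47 CPM in homozygotes. The highest homozygote, replicate 1, exceeded the lowest heterozygote. The fitted log2 difference from controls was -1.85 ± 0.33 (SE) at an adjusted p of 0.0010, and against heterozygotes alone it was -1.02 at 0.077. Without wild-type replicate 1 the difference from controls was -1.09 at an adjusted p of 0.036. HsOr322, HsOr340 and HsOr321 together made up 42.0% of what the array retained.

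The next row, HsOr321, had 3.95 and 7.17 CPM in wild types, 4.83, 3.42 and 3.02 CPM in heterozygotes, and 0.497 to 0.707 CPM in homozygotes, which were close to one another and below every control. HsOr313, with the most reads of the array in controls, had 29.8 and 20.7 CPM in wild types, 11.8, 9.03 and 8.34 CPM in heterozygotes, and at most 3 counts in a homozygote library, at least 57.7-fold lower. HsOr332 averaged 14.5 ± 3.88 CPM (SD) in controls and 0.305 ± 0.135 CPM in homozygotes. The end rows were HsOr325, from 5.23 ± 1.50 to 0.308 ± 0.181 CPM, and HsOr349, from 5.66 ± 1.91 to 0.152 ± 0.150 CPM. The first segment kept 5.6%, the middle 1.8% and the last 2.5%, with the first the highest in 7 of 7 homozygotes. HsOr322 alone gave 3.79 of the 7.13 CPM that the first segment averaged in homozygotes. The segment without HsOr322 was not computed, so its rank may rest on that member.

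HsOr273 to HsOr302 was at full strength in controls and close to empty in homozygotes. It gave 418 and 289 CPM in the wild types, 287, 276 and 249 CPM in the heterozygotes, and 0.0668, 0.365 and 1.76 CPM as the lowest, median and highest of the homozygotes. In raw counts the 30 members together had 15385 in the 5 controls and 68 in the 7 homozygotes, of which 37 were in replicate 5 and 1 in replicate 2. The share in replicate 2 was 0.000007% of gene-assigned counts with a Wilson 95% interval of 0.000001% to 0.000041%, and in replicate 5 it was 0.000159% with an interval of 0.000116% to 0.000219%, so these 2 libraries differed beyond counting error. All 30 members were tested and called lower.

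HsOr289 led the array in controls, with 21.3 and 23.9 CPM in wild types and 31.3, 34.4 and 25.3 CPM in heterozygotes. It had 4 counts in all homozygotes and was at least 98.6-fold lower. HsOr302, the last row, was even among controls, at 20.3, 24.1, 19.6, 22.7 and 15.9 CPM, and had no count in any homozygote, at least 74.3-fold lower. HsOr280 had the highest mean CPM in homozygotes, at 0 to 0.436 CPM with 11 counts in all homozygotes, against 26.7 and 12.4 CPM in wild types and 11.7, 13.2 and 12.4 CPM in heterozygotes. The first row, HsOr273, was at least 22.9-fold lower. Segments kept 0.37%, 0.16% and 0.16%, and none of the 3 was the highest in all homozygotes.

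HsOr117 to HsOr121 gave 239.7 and 176 CPM in the wild types, 173, 122 and 140.1 CPM in the heterozygotes, and 0.771, 1.37 and 3.33 CPM as the lowest, median and highest of the homozygotes. All 32 tested members were called lower. HsOr90 had 13.7 and 8.48 CPM in wild types, 8.57, 6.14 and 8.19 CPM in heterozygotes, and 4 counts in all homozygotes, at least 32.6-fold lower. HsOr100 was more even, at 8.61 and 10 CPM in wild types and 8.88, 6.92 and 8.66 CPM in heterozygotes, and its single homozygote count makes it at least 31.2-fold lower. HsOr97 kept the most both in CPM and relative to controls (6.4%), at 0 to 0.808 CPM with a median of 0.274 CPM, against 8.47 and 3.91 CPM in wild types and 4.05, 3.68 and 3.02 CPM in heterozygotes. Its log2 fold change was -3.93 ± 0.47 (SE), adjusted p = 6.4e-05. The first row, HsOr117, had no homozygote count and was at least 9.5-fold lower, as was the last row, HsOr121, with 1 count. The array ran from 0.20% left in its first segment to 1.0% in the middle and 1.4% in the last, and the first segment was the lowest in 7 of 7 homozygotes. The first segment had 14 homozygote counts, of which 11 were in replicate 5, and it kept 0.071% without that library.

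The 10 members under the count minimum were HsOr2 and HsOr31 in HsOr44 to HsOr43, HsOr64 in HsOr60 to HsOr77.2, HsOr311 and HsOr327 in HsOr325 to HsOr349, and HsOr114, HsOr112, HsOr103, HsOr101 and HsOr87 in HsOr117 to HsOr121. Their control means were 0.467 to 2.52 CPM and their homozygote means 0 to 0.388 CPM. HsOr114, HsOr103 and HsOr101 had no count in any homozygote. Only HsOr2 and HsOr64 had homozygotes within the range of controls. With no count minimum, all 213 members entered the test and 211 were called lower against the controls.

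The arrays are bordered by 12 rows that are not receptors, of which 11 could be tested and LOC105188516, after HsOr44 to HsOr43, had no count in any library. Of the 11, 4 were called lower in homozygotes against controls, where 25.0% of all genes tested were. LOC105183726, before HsOr60 to HsOr77.2, changed by -1.62 ± 0.12 (SE) on the log2 scale, at an adjusted p of 1.0e-06. LOC105183315 and LOC105183309, on either side of HsOr273 to HsOr302, had -3.03 and -2.74, with at most 0.534 and 0.436 CPM in a homozygote. LOC105183309 was only 0.424 and 1.09 CPM in wild types, so the groups overlapped. It was not called in homozygotes against wild types (-1.46, edgeR adjusted p = 0.089). In heterozygotes it was called higher than in wild types (2.56, edgeR adjusted p = 0.016). LOC112589785, a long noncoding RNA in RefSeq, had -4.07 ± 0.41 (SE), adjusted p = 1.7e-05, and separates HsOr349 from HsOr350 and HsOr351, which follow in the row order. The other 7 were not called, although 3 of them were called in other settings. LOC105180779 and LOC105190311 were called higher in batch 2 alone (log2 fold changes 1.94 and 1.25, edgeR adjusted p = 0.0099 and 0.0013) and without wild-type replicate 2 (1.76 and 1.14, adjusted p = 0.015 and 0.0018), but were -0.043 and -0.23 without wild-type replicate 1. LOC105188296 was called lower without wild-type replicate 1 (-0.36, adjusted p = 0.014).

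Heterozygotes were compared with wild types to ask whether 1 mutant copy changed the array receptors. The summed level was lower in heterozygotes in all 6 arrays. The heterozygote mean share was 60% of the wild-type mean in HsOr44 to HsOr43, 51% in HsOr170 to HsOr166, 63% in HsOr60 to HsOr77.2, 66% in HsOr325 to HsOr349, 75% in HsOr273 to HsOr302 and 68% in HsOr117 to HsOr121. The size of this difference depended on which wild type was used. Within batch 2, which holds wild-type replicate 1 and 2 heterozygotes, the heterozygotes had 52% of the wild-type share over all 6 arrays. Within batch 1, with 1 library of each, the heterozygote had 82% of the wild-type share. These shares are not TMM-scaled. In TMM-scaled CPM the same 2 libraries were closer, at 1550 CPM in the heterozygote and 1643 CPM in the wild type. The heterozygotes were below both wild types in the summed CPM of every array, but in batch 1 the gap was often small. The batch 1 heterozygote had 287 against 289 CPM in HsOr273 to HsOr302 and 170.1 against 172.6 CPM in HsOr60 to HsOr77.2. It had 173.2 against 175.9 CPM in HsOr117 to HsOr121 and 348.9 against 361.1 CPM in HsOr44 to HsOr43. The gap was wider in HsOr325 to HsOr349, at 313.8 against 353.5 CPM, and in HsOr170 to HsOr166, at 256.8 against 290.4 CPM.

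By gene, 17 of the 203 tested members, or 8.37%, were called lower in heterozygotes by edgeR's test, and 8.14% of all genes tested were. The share of members called was therefore close to the background. No member was called higher by edgeR, while 9.71% of all genes were, 4 were higher at an unadjusted p under 0.05, and DESeq2 called 1. The count of 17 was not stable to leaving out a library. It was 0 without wild-type replicate 1 and 32 without wild-type replicate 2, each of which leaves 1 wild-type library whose spread is assumed to be that of the other groups. Without heterozygote replicates 1, 2 and 3 in turn it was 10, 4 and 2, and without homozygote replicate 3 it was 11. It was also 2 without the batch term. At an unadjusted p under 0.05, 45 members were lower. The median log2 fold change of the members was -0.64, beside 0.03 over all genes tested. Every heterozygote was below both wild types in 81 of the 203 members, or 39.9%, a pattern shown by 11.7% of all genes tested. By array the median log2 fold change was -0.76 in HsOr44 to HsOr43, -0.93 in HsOr170 to HsOr166, -0.57 in HsOr60 to HsOr77.2, -0.58 in HsOr325 to HsOr349, -0.20 in HsOr273 to HsOr302 and -0.59 in HsOr117 to HsOr121. Of the 13 cell type markers besides HsOrco, 4 were called higher in heterozygotes in the same fit and 1 lower. Mhc was higher (log2 fold change 2.48, edgeR adjusted p = 0.031), at 281 to 1053 CPM in wild types and 603 to 4819 CPM in heterozygotes. The neuronal genes onecut (1.31, adjusted p = 0.041) and Syt1 (0.64, adjusted p = 0.029) and Rh50 (1.09, adjusted p = 0.027) were also higher. The other neuronal genes, nSyb and fne, were not called. In wild-type replicates 1 and 2, onecut was 28.0 and 176.5 CPM, against 109.6 to 217.1 CPM in heterozygotes. Syt1 was 211.7 and 361.9 CPM there, against 346.7 to 476.5 CPM. In both genes wild-type replicate 2 lay inside the heterozygote range. The mechanosensory channel gene nompC was lower (-1.24, adjusted p = 0.0047). The part of these differences in the receptor levels was not tested.

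The called members were 3 in HsOr44 to HsOr43, 5 in HsOr170 to HsOr166, 6 in HsOr325 to HsOr349, 2 in HsOr273 to HsOr302 and 1 in HsOr117 to HsOr121. The 3 with the smallest p were HsOr313, HsOr141 and HsOr340. HsOr313, whose levels are given above, changed by -1.39 ± 0.29 (SE) on the log2 scale, at an adjusted p of 0.0091. HsOr141 had 35.2 and 18.0 CPM in wild types and 10.7, 9.47 and 11.4 CPM in heterozygotes, with a log2 fold change of -1.36 ± 0.31 (SE) and an adjusted p of 0.014. HsOr340 had 21.0 and 15.4 CPM in wild types and 7.94, 7.01 and 5.72 CPM in heterozygotes, with -1.42 ± 0.33 (SE) and an adjusted p of 0.015. In all 3, both wild types were above all heterozygotes, and wild-type replicate 1 was the highest library.

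**Figure D4:**
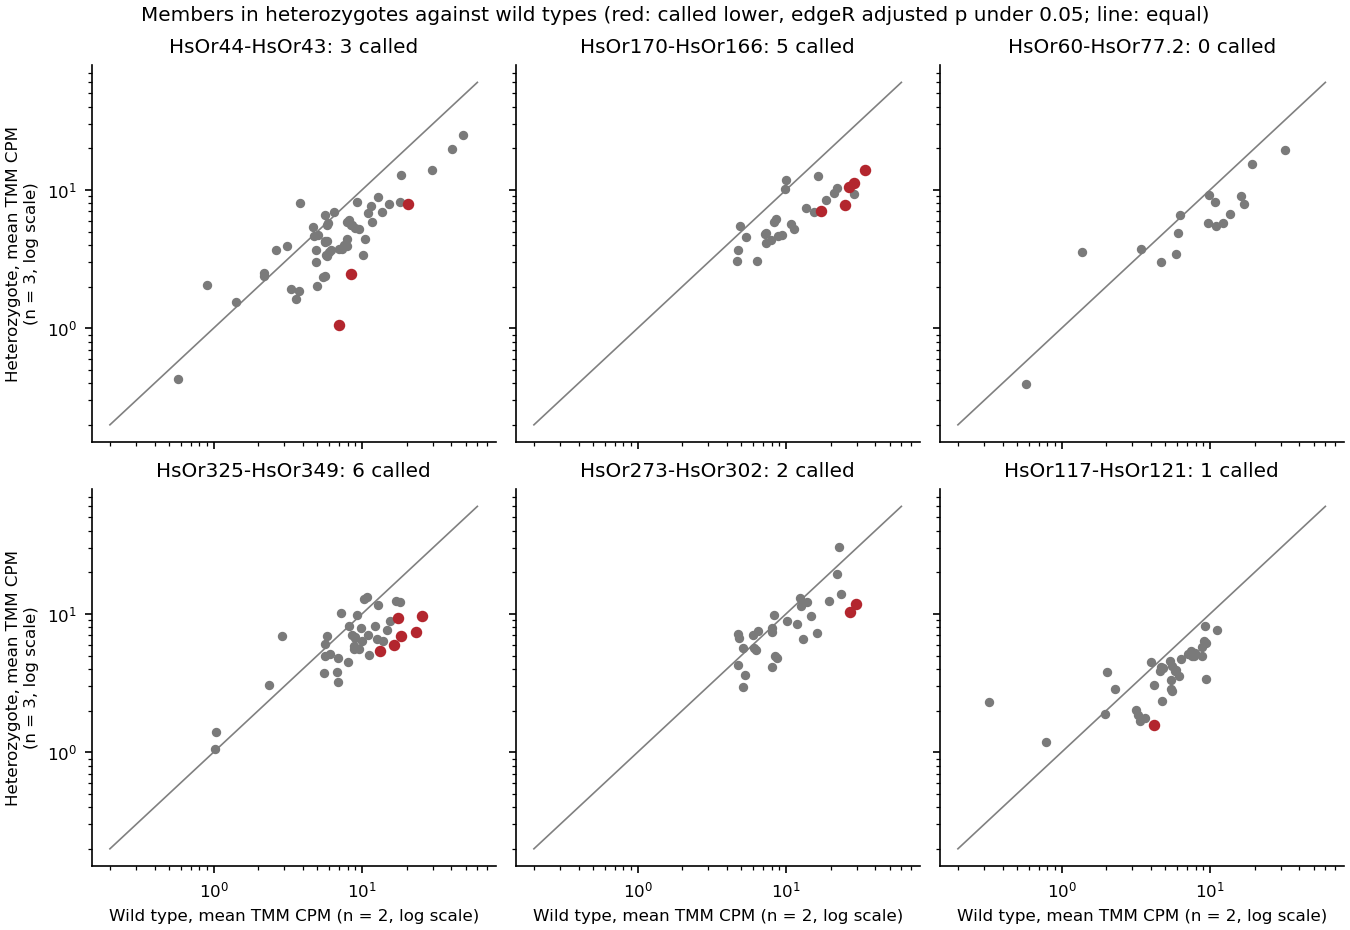
Mean TMM CPM of every member in wild types (x axis, n = 2) and heterozygotes (y axis, n = 3), both on log axes, with the 17 members called lower in red and a line of equality. Most points lie under the line, and the median log2 fold change is -0.20 in HsOr273 to HsOr302 and -0.93 in HsOr170 to HsOr166.

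Few members were called different between sequencing batches, in a comparison chosen after the values were seen. With genotype held fixed, 5 of the 203 tested members, or 2.46%, were called different between batches by edgeR, each higher in batch 1, where 17.8% of all genes were called higher in batch 1 and 19.7% in batch 2. With few counts of these members in homozygotes, the comparison rests largely on the 5 controls. Those called were HsOr33, HsOr65, HsOr68, HsOr69 and HsOr162. The smallest called log2 difference was -0.82, in HsOr68, and smaller shifts in other members may have gone uncalled. HsOr69, in HsOr60 to HsOr77.2, differed the most, at 11.1 and 13.9 CPM in the batch 1 controls (wild-type replicate 2 and heterozygote replicate 1) and 1.41, 2.28 and 3.73 CPM in the batch 2 controls, a log2 difference of -2.26 ± 0.47 (SE) for batch 2 minus batch 1. Its homozygotes were between 0.048 and 0.365 CPM, below every control of either batch. Computed within batches, homozygotes had 2.7% of the control share over all 6 arrays in batch 1 and 2.4% in batch 2.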

How the data were processed

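The authors mapped the reads with STAR 2.6.1d, counted them per gene with its gene counting option and deposited raw read counts. A read was counted only where it mapped to a single place and a single gene, so reads common to near-identical copies were dropped and levels of recent duplicates are uncertain. The strand columns were about equal (50.0% to 50.6% of counts in the first), so the unstranded column was used and overlapping or antisense genes cannot be separated. Summary rows that name no gene stayed out of library sizes. A deposited table of counts normalized with DESeq2 1.34.0 was not used.

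Genes with a mean of at least 10 counts over 12 libraries (10740 of 14407) were fitted with edgeR 4.0.16 (limma 3.58.1, R 4.3.3) as genotype plus sequencing batch, with TMM scaling, the quasi-likelihood F test and Benjamini-Hochberg adjustment over all genes tested, called at an adjusted p under 0.05. The controls contrast weights the wild-type and heterozygote coefficients equally. The SE of a log2 fold change is its size divided by the square root of F, and is approximate. The study's methods state no test for these libraries, so this one was chosen here. The fit was also run on counts simulated with the means, depths and dispersions of these data. A member at or under 3 counts in every homozygote library has a fold bound, the control mean CPM divided by the mean floor (0.276 CPM). Array sums carry no test.

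Named members were the 2 with the most reads in controls, the one with most in homozygotes and the first and last of each array, any tested member not called, the 3 smallest p in heterozygote against wild type, HsOrco and the bordering rows. Other named members, the 3 segments and the neighbor counts were chosen after their values were seen. The members and lists were chosen with earlier results of these data known. Alternatives were library totals, DESeq2 1.42.0, no count minimum, no batch term, batch 2 alone, a replicate block and leaving out each library. Segment shares without homozygote replicate 5 were added after the data were seen. Python 3.11.15, numpy 2.4.6, pandas 2.3.3 and scipy 1.17.1 were used.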

Additional observations from a re-analysis of the deposited data

Results flagged for a closer look

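Homozygote replicate 5 lay far above the other 6 homozygotes, by Dixon's ratio at its 95% critical value for 7 values, in 4 of the 35 sets of homozygote values examined. Chance flags about 1 in 20 only where values are normal and sets independent. The sets were the 6 array sums and the named genes above 3 counts in some homozygote library. The deepest library passes that minimum most easily, and the array sums include named members, so this rate is a rough guide only. HsOrco was 157 CPM in it and 13.6 to 45.0 CPM in the others. The summed level of the HsOr117 to HsOr121 array was 3.33 CPM against 0.771 to 1.71 CPM, HsOr30 was 0.571 CPM against 0 to 0.218 CPM, and HsOr166 was 2.14 CPM against 0.0643 to 0.667 CPM. This library was also the deepest, at 23.2 M gene-assigned counts.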

How the results depend on the processing

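The counts of members called lower in homozygotes stayed within 1.5 times their values under every alternative, as did those of the single arrays. Leaving out each library in turn gave 187 to 203 against controls, 188 to 202 against heterozygotes and 174 to 203 against wild types. The count of 17 members lower in heterozygotes than in wild types did not hold. It was 26 with DESeq2, 31 in batch 2 alone, 2 without the batch term, 0 with the replicate block, and 0 to 32 over the libraries left out. Members called higher there numbered 1 with DESeq2, 2 in batch 2 alone, 1 with no count minimum and 0 to 2 over the libraries left out. The log2 difference in share between heterozygotes and wild types, -0.70 in HsOr44 to HsOr43, was -1.11 in batch 2 alone and -1.07 to -0.33 over the libraries left out, and over all 6 arrays, -0.65, it was -0.95 in batch 2 alone. Whether replicate numbers pair the libraries is not known. Same-numbered libraries deviated from their group means with correlations from -0.56 to 0.53. These cannot settle it, since batch was not removed and the deviations of the 2 wild types mirror each other. Apart from the heterozygote counts, the replicate block changed the call of LOC105183309 (-2.56, edgeR adjusted p = 0.051). HsOr21 was called higher in homozygotes in batch 2 alone (1.61, edgeR adjusted p = 0.038), and was -0.28 without the batch term and -0.54 to 1.37 over the libraries left out. Among bordering rows, LOC105186030 was 0.021 with DESeq2, 0.188 without the batch term, 0.002 with no count minimum and -0.11 to 0.27 over the libraries left out. LOC105188337 was -0.092 with library totals and -0.17 to 0.17 over the libraries left out, LOC105180779 was -0.043 to 1.76, and LOC105190311 was -0.23 to 1.14. The last 2 were called higher in batch 2 alone and without wild-type replicate 2, and LOC105188296 was called lower without wild-type replicate 1. The causes were not tested. At a minimum of 0.5 CPM homozygotes held 15 to 38 members and at 2 CPM 1 to 5. Depth limits statements on single members in homozygotes, since 98 of the 213 had at most 3 counts in every homozygote library.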
